A study of Sus scrofa with 36 samples.

Results

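Mammary gland RNA of ovariectomized miniature pigs that ended their treatment on haloperidol with progesterone (group HP, 4 arrays) was compared with that of pigs kept on bromocriptine alone (group B, 4 arrays), across all genes. The 8 arrays were chosen by their treatment labels from the 36 arrays of the study, which hold 9 groups of 4 animals with 1 array per animal. All animals were female Yucatan miniature swine aged 5 months. HP, H, BP and B animals had their ovaries removed, received bromocriptine for 8 days and then a second treatment for 5 days. That second treatment was haloperidol with progesterone in HP, haloperidol in H, bromocriptine with progesterone in BP and bromocriptine in B. Each animal was injected with BrdU, a label of cells that copy their DNA, 24 hours before tissue was taken. The groups HEP, HE, BEP and BE received the same treatments with estrogen added, and sham animals kept their ovaries and received saline. The labels state neither the doses nor the circulating hormone levels. The change of dopamine drug and the added progesterone cannot be told apart by HP against B itself, so HP was also set against H and against BP.

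Dopamine from the hypothalamus holds back prolactin secretion by the pituitary. Bromocriptine activates dopamine D2 receptors and lowers circulating prolactin, whereas haloperidol blocks these receptors and raises it. In mammary epithelium prolactin acts through its receptor, JAK2 and the transcription factors STAT5A and STAT5B, which drive milk protein genes. Progesterone acts through its nuclear receptor in a part of the luminal cells, promotes side branching and alveolar growth, and in pregnancy holds back full milk secretion. Estrogen induces the progesterone receptor in this tissue.

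Values are probe set summaries on an RMA scale read as log2, so a difference of 1 is a 2-fold change in that reading. They are relative hybridization signals, and levels of different genes are not compared. HP was higher than B for 26 probe sets and lower for 21, which is 47 of 20792 tested (0.226%) at an adjusted p under 0.05 by limma. At an unadjusted p under 0.05 there were 2649. Of the 6360 genes that could be represented by 1 probe set each, 18 were higher in HP (0.283%) and 3 were lower (0.0472%). The median difference over these genes was 0.0058. The 18 higher genes were led by SLC34A2, a phosphate transporter, and included PIGR, ANGPTL4, MT1A, PDXK, MFGE8, SRM and CPT1A. The 3 lower genes were BCAS1, FMO5 and CMBL. The other called probe sets comprised 19 with no gene symbol here (7 higher and 12 lower), 1 shared by several symbols and 6 further probe sets of genes represented by a brighter one.

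The number of calls rested on the spread being estimated from all 36 arrays and on which arrays were present. With the HP and B arrays alone 1 probe set was called, that of PDXK, and with the 16 arrays of HP, H, BP and B alone none was, although 1984 had an unadjusted p under 0.05. Leaving out 1 array left 10 calls without HP array C, 18 without B array C, 22 without B array A and 31 without HP array B. It gave 117 without HP array A, 148 without B array D and 121 without BP array A, while 38 were called without HP array D and 43 without B array B. SLC34A2, ANGPTL4, MT1A, PDXK, RFLNA, CPT1A and FMO5 were called whichever of the 8 HP and B arrays was left out. The other 14 called genes depended on single arrays: 14 lost their call without HP array C, 13 without B array C, 12 without B array A, 10 without HP array D, 8 without HP array A, 7 without HP array B, 6 without B array B and 0 without B array D. The plot of calls by setting shows these numbers.

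**Figure D1:**
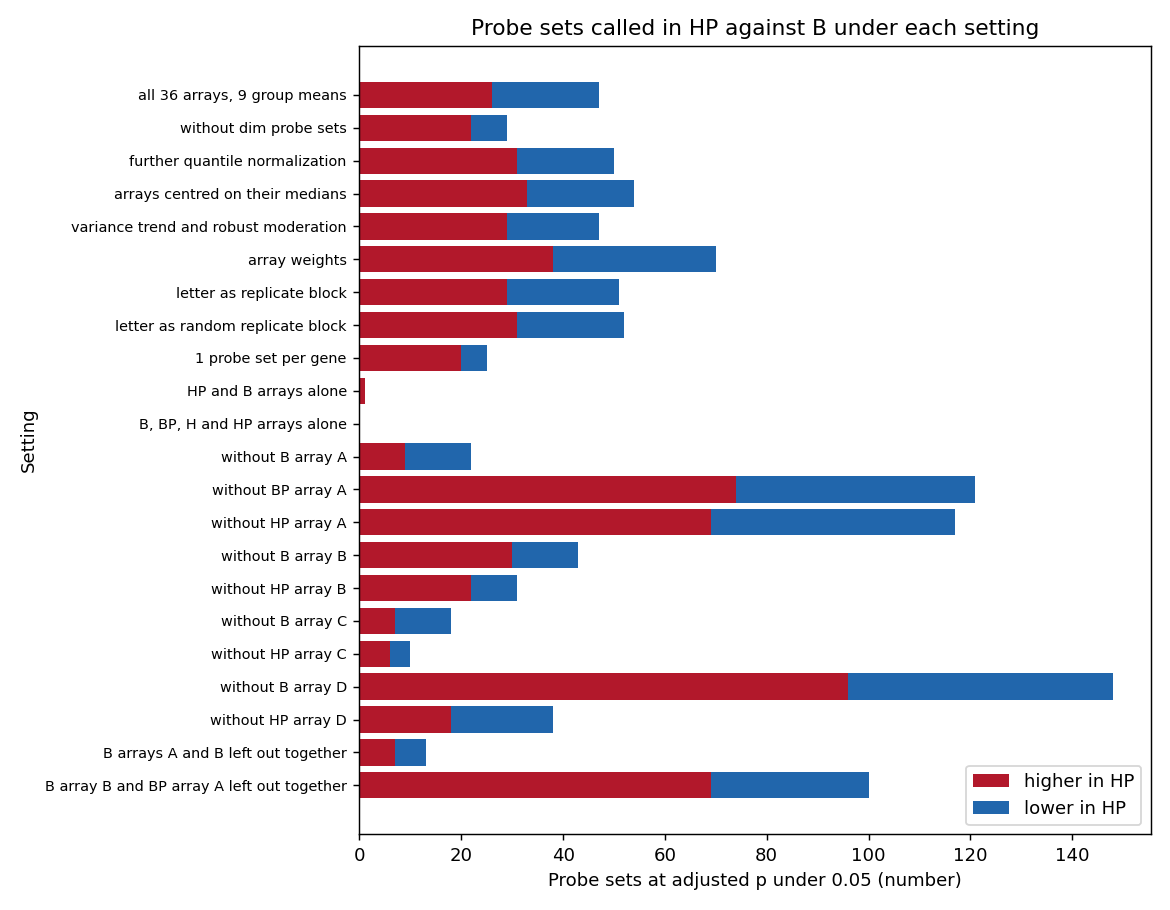
Number of probe sets called in HP against B (horizontal axis, adjusted p under 0.05 by limma) under each setting, with those higher in HP in red and those lower in HP in blue. The count was 47 with all 36 arrays, 1 with the HP and B arrays alone and 148 without B array D.

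The arrays were mixed in their overall profiles. Of the 36 arrays, 18 correlated best with their own group, and all 4 HP arrays lay nearest to H or BP. B array D lay nearest to HP, and the other 3 B arrays nearest to B. The epithelial keratins KRT8 and KRT18 were present in both groups, with KRT8 at 12.40 ± 0.10 in HP and 12.30 ± 0.66 in B (SD, n = 4 each). B array A had the lowest average level of luminal epithelial markers (score -1.38, against -0.58 to 0.14 in HP and 0.05 to 0.29 in the other B arrays). It also had the highest score of skeletal muscle markers, at 5.98, with -0.97 to 2.54 in HP and -1.13 to -0.27 in the other B arrays. A score is a list's average level in an array, each gene being taken relative to its mean in the study. In whole tissue, fewer cells of a type and less RNA per cell cannot be told apart.

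Among the called genes the largest difference was in SLC34A2, which encodes the sodium-phosphate cotransporter NaPi-IIb of secretory epithelia. Its values were 11.37, 9.50, 9.79 and 11.13 in HP, against 3.93, 7.40, 4.55 and 5.56 in B. Every HP array lay above every B array, by 2.10 at the closest. The difference was 5.09 ± 0.83 (SE), a 33.9-fold change, with an adjusted p of 0.00283 by limma. In H the level was 9.99 ± 0.46 and in BP 7.38 ± 2.44 (SD, n = 4 each), where BP array A stood at 10.98 and the other BP arrays between 5.59 and 6.55. PIGR, the receptor that carries dimeric immunoglobulin A through epithelium into milk, had 11.52, 9.40, 11.08 and 11.39 in HP and 5.36, 9.20, 6.44 and 8.64 in B. The lowest HP array exceeded the highest B array by only 0.20. PIGR differed by 3.44 ± 0.77 (adjusted p = 0.0432), and its second probe set by 2.83, which did not pass (adjusted p = 0.103). MFGE8, a protein of the milk fat globule membrane, averaged 10.65 ± 0.34 in HP and 8.92 ± 0.33 in B and differed by 1.73 (adjusted p = 0.0378).

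**Figure D2:**
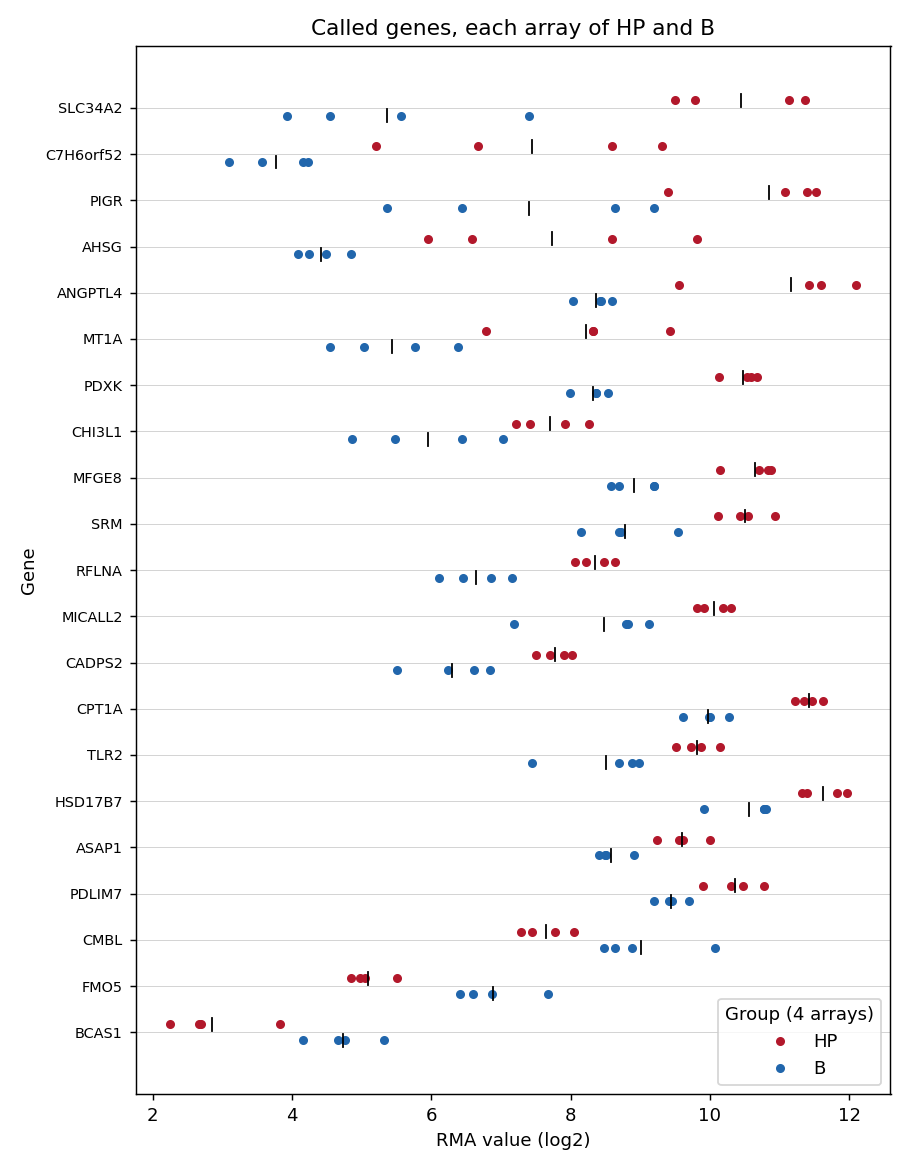
RMA value (log2, horizontal axis) of the 21 called genes in each HP array (red, upper row of each gene) and each B array (blue, lower row), with short bars at the group means. SLC34A2 lies between 9.50 and 11.37 in HP and between 3.93 and 7.40 in B. In all 21 genes the groups do not overlap, but the genes were called from these same arrays, which favours such separation. Over all genes every HP array lay above every B array in 2.67% and below in 3.1%.

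Genes of fatty acid use and cofactor supply were among those called. ANGPTL4, a secreted inhibitor of lipoprotein lipase, had 9.55, 12.10, 11.59 and 11.42 in HP, against 8.60, 8.43, 8.04 and 8.42 in B. HP array A was the lowest of its group, and still above all B arrays. The difference was 2.79 ± 0.44 (adjusted p = 0.00204), and a second ANGPTL4 probe set differed by 2.21 (adjusted p = 0.0507). CPT1A, the enzyme that admits long-chain fatty acids to mitochondria for oxidation, had 11.22, 11.63, 11.47 and 11.35 in HP and 10, 9.99, 10.28 and 9.62 in B. The spread within each group was small beside the difference of 1.45 ± 0.22 (adjusted p = 0.00143). PDXK, the kinase that makes the active form of vitamin B6, had 10.67, 10.13, 10.59 and 10.53 in HP, against 7.99, 8.37, 8.37 and 8.54 in B. It differed by 2.16 ± 0.32 (adjusted p = 0.00143), a 4.48-fold change.

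MT1A, a metallothionein that binds zinc and copper, had 6.78, 9.43, 8.33 and 8.33 in HP and 4.55, 5.76, 6.38 and 5.04 in B. The closest arrays, HP array A and B array C, were 0.40 apart. MT1A differed by 2.78 ± 0.48 (adjusted p = 0.00523). SRM, which makes the polyamine spermidine, averaged 10.51 ± 0.34 in HP and 8.78 ± 0.57 in B and differed by 1.73 (adjusted p = 0.0161). HSD17B7, an enzyme of cholesterol synthesis that also reduces estrone to estradiol and was found in rat corpus luteum as a protein associated with the prolactin receptor, had 11.83, 11.32, 11.40 and 11.97 in HP, against 10.81, 9.91, 10.77 and 10.78 in B. Its B array B stood well below the other B arrays. HSD17B7 differed by 1.06 ± 0.23 (adjusted p = 0.0378), and by 0.84 without B array B, where it did not pass.

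Further genes higher in HP have roles in cell shape and secretion or in immunity. RFLNA, a filamin-binding regulator of actin, had 8.64, 8.48, 8.22 and 8.07 in HP and 6.45, 6.86, 6.11 and 7.15 in B, and differed by 1.71 ± 0.26 (adjusted p = 0.00178). MICALL2, which acts in the transport of junction proteins, differed by 1.57, CADPS2, a factor of vesicle exocytosis, by 1.48, ASAP1, a GTPase-activating protein for Arf, by 1.03, and PDLIM7, an actin-associated PDZ and LIM protein, by 0.92. Their adjusted p-values lay between 0.0234 and 0.0432. The other probe set of CADPS2 with a mean near that of the first differed by 1.47 (adjusted p = 0.069). CHI3L1, a secreted chitinase-like glycoprotein, averaged 7.71 ± 0.47 in HP and 5.95 ± 0.97 in B (adjusted p = 0.0337). TLR2, a receptor for bacterial lipoproteins, averaged 9.81 ± 0.27 in HP and 8.50 ± 0.71 in B (adjusted p = 0.0378). B array A was low in MICALL2, at 7.19 against 8.80 to 9.13 in the other B arrays. It was also low in TLR2, at 7.45 against 8.69 to 8.99. Neither gene passed without B array A. With 1 HP or B array left out, MICALL2 differed by 1.14 to 1.79 and TLR2 by 0.96 to 1.47.

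Of the called genes, 4 had low signals, with a mean over all arrays below the lower quartile of 5.99, and were not tested when dim probe sets were left out. AHSG, the plasma glycoprotein fetuin-A made mainly by liver, had 9.81, 5.95, 6.58 and 8.60 in HP, against 4.09, 4.49, 4.25 and 4.84 in B. HP arrays A and D carried most of the difference of 3.32 ± 0.72 (adjusted p = 0.0381). C7H6orf52, whose role is not described here, had 9.32, 5.21, 6.67 and 8.60 in HP and 4.16, 3.58, 3.10 and 4.23 in B, with the same arrays highest (difference 3.68 ± 0.76, adjusted p = 0.0337). BCAS1, a gene amplified in some human breast tumours and expressed in myelinating cells, had 3.83, 2.25, 2.66 and 2.70 in HP, against 4.16, 4.77, 5.32 and 4.67 in B. Its difference of -1.87 ± 0.40 (adjusted p = 0.0367) lies near the lowest signals on the arrays, which start at 1.55. FMO5, a flavin-containing monooxygenase, had 5.05, 4.98, 4.85 and 5.50 in HP and 6.41, 6.60, 7.68 and 6.87 in B. It differed by -1.79 ± 0.30 (adjusted p = 0.00391).

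CMBL, a hydrolase that activates some prodrugs, had 7.78, 7.45, 7.29 and 8.05 in HP, against 10.07, 8.88, 8.48 and 8.64 in B. B array A was the highest. CMBL differed by -1.37 ± 0.28 (adjusted p = 0.0337), and by -1.02 without B array A, where it did not pass, while its second probe set differed by -0.04 (adjusted p = 0.967). Probe sets of one gene also differed elsewhere. Second probe sets were called for FASN, ZDHHC4, DST, ABHD14B and SLC46A3, all lower in HP, and for CYP2D25, higher in HP by 1.50. The brighter probe sets of these 6 genes were not called, and that of CYP2D25 differed by -0.03.

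Milk protein genes showed the widest separation of group means and did not pass the test. Of the 31 listed genes of milk proteins and lactose synthesis, 25 were measured, 1 was called higher (PIGR) and none lower, and 20 differences were positive, against 50.5% of all genes. Their median difference was 1.50. CSN2, beta-casein, had 12.22, 11.51, 11.86 and 12.36 in HP, against 4.16, 11.58, 2.25 and 6.004 in B. B array B stood within the HP range while the other 3 B arrays were far below it. The difference was 5.99 ± 1.36 (95% interval 3.21 to 8.77, adjusted p = 0.0507). The SE and interval use 1 spread shared by all groups, although the SD was 0.38 in HP and 4.02 in B. WAP, whey acidic protein, had 13.02, 10.29, 12.01 and 11.35 in HP and 3.24, 10.18, 3.59 and 4.52 in B. Its groups did not overlap, but B array B came within 0.11 of the lowest HP array (difference 6.29 ± 1.51, adjusted p = 0.0689).

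LALBA, alpha-lactalbumin, the regulatory subunit of lactose synthase, had 12.56, 9.08, 10.43 and 10.91 in HP, against 2.30, 10.78, 2.76 and 3.26 in B. B array B lay above 2 of the HP arrays, and the difference of 5.97 ± 1.91 had an adjusted p of 0.185. The caseins CSN1S1, CSN1S2 and CSN3 differed by 5.26, 6.26 and 5.34, with adjusted p-values of 0.0731, 0.102 and 0.106. Among members singled out after their values were seen, PAEP, the symbol of beta-lactoglobulin in cattle, averaged 13.11 ± 0.23 in HP and 9.73 ± 2.26 in B (adjusted p = 0.0633). The antimicrobial milk proteins LTF, lactoferrin, and LPO, lactoperoxidase, differed by 2.31 and 1.81 (adjusted p = 0.0784 and 0.069).

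Without B array B, 7 milk genes were called higher: CSN1S1, CSN1S2, CSN2, CSN3, PAEP, PIGR and WAP. CSN2 then differed by 7.85 (adjusted p = 0.00306) and WAP by 7.89 (adjusted p = 0.0109), while LALBA had an adjusted p of 0.0581. Of the 25 genes called without that array, 15 were among the 21 called with it. With B array B and BP array A both left out, a setting chosen after the data were seen, 11 milk genes were called, LALBA included. The count also moved with other arrays. Without BP array A, which is in neither group, 8 milk genes were called (CSN1S1, CSN2, LPO, LTF, PAEP, PIGR, PLIN2 and WAP). Without B array D there were 4 (LPO, LTF, PIGR and PLIN2) and without HP array B there were 3 (LPO, LTF and PIGR). No milk gene was called without B array A, B array C, HP array A, HP array C or HP array D, each left out alone. B array B was labelled as bromocriptine alone, and no source used here sets it apart.

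**Figure D3:**
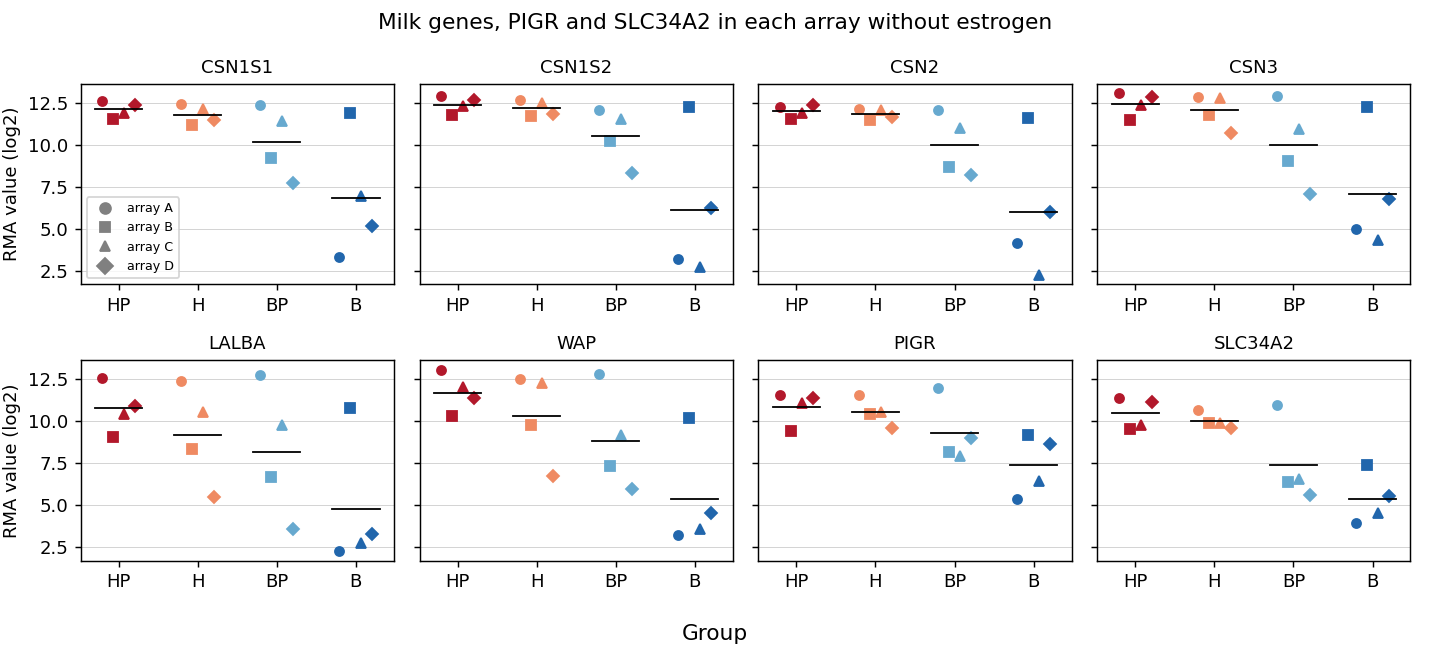
RMA value (log2, vertical axis) of 6 milk protein genes, PIGR and SLC34A2 in each array of HP, H, BP and B, with a marker shape for each array letter and bars at the group means. In CSN2 the 4 HP arrays lie between 11.51 and 12.36 and 3 B arrays at or below 6.004, with B array B at 11.58.

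Genes that carry the prolactin signal did not pass the test. Of 26 listed genes of the prolactin receptor and STAT5 response, 15 were measured, none was called in either direction, and their median difference was 0.14. STAT5A had 10.79, 10.27, 9.83 and 10.69 in HP, against 9.24, 9.84, 9.73 and 9.57 in B, which overlapped by a narrow margin. It differed by 0.80 ± 0.30 (95% interval 0.19 to 1.40, adjusted p = 0.26), against quartiles of -0.23 and 0.26 over all genes. STAT5B differed by 0.67 ± 0.34 (adjusted p = 0.408), and by -0.06 in its second probe set. JAK2, the kinase bound to the prolactin receptor, differed by 0.14 (adjusted p = 0.896). PRLR, CISH, SOCS2, ELF5, TNFSF11 and WNT4 were not measured under these symbols here.

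Steroid response genes did not pass either. Of 30 listed, 16 were measured, with none called and a median of -0.01. PGR, the progesterone receptor, had 5.64, 5.80, 5.31 and 5.69 in HP and 5.15, 6.49, 5.21 and 4.10 in B, and the groups overlapped (difference 0.37, 95% interval -0.71 to 1.45). ESR1, estrogen receptor alpha, differed by -0.53 (adjusted p = 0.507). HSD11B2, which inactivates cortisol, had 6.85, 8.20, 7.66 and 10.08 in HP, against 6.18, 6.98, 5.83 and 7.49 in B. It averaged 6.80 ± 0.56 in H and 7.22 ± 0.47 in BP, so HP array D stood far above the rest. The difference from B was 1.58 ± 0.52 (adjusted p = 0.201). Of 56 cell cycle genes 34 were measured and none was called (median 0.20). TOP2A, a topoisomerase of dividing cells, averaged 6.96 ± 1.44 in HP and 6.64 ± 1.40 in B.

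Most genes of fatty acid synthesis had lower means in HP, and none passed the test. Of 43 listed, 29 were measured, none was called, 19 differences were negative, and the median was -0.26. In 5 of the 29 (17.2%) every HP array lay below every B array, which was so in 3.1% of all genes, and in none did every HP array lie above every B array, which was so in 2.67% of all genes. FASN, fatty acid synthase, had 9.83, 8.19, 9.12 and 10.09 in HP, against 11.35, 11.33, 10.80 and 10.75 in B. It differed by -1.75 ± 0.47 (adjusted p = 0.102), and its second, dimmer probe set by the same amount with less spread (-1.75 ± 0.30, adjusted p = 0.0045). ME1, malic enzyme, a source of NADPH for this synthesis, had 10.23, 9.55, 9.67 and 10.93 in HP and 11.94, 11.78, 11.78 and 11.23 in B (difference -1.58 ± 0.47, adjusted p = 0.147). ELOVL6, ACSL1 and SCD were the other 3 without overlap, with differences of -1.30, -0.68 and -0.57, and were named after their values were seen. ACACA, the carboxylase of the first committed step, differed by -0.30 (adjusted p = 0.803), and PNPLA3, a lipase of lipid droplets, by -1.70 with overlapping groups (adjusted p = 0.34).

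Adipose tissue surrounds the porcine gland and shares these enzymes. Of 13 measured adipocyte markers none was called, with a median of 0.03 and scores of 0.33 to 0.86 in HP and -0.21 to 1.06 in B. ADIPOQ, adiponectin, had 9.12, 8.49, 7.30 and 8.18 in HP and 8.96, 9.67, 8.69 and 7.06 in B, which overlapped. The part of adipose content in the lipid genes was not tested. PCK1, which supplies glycerol for fat storage and was named after its values were seen, averaged 9.87 ± 0.86 in HP and 7.31 ± 1.94 in B (difference 2.56, adjusted p = 0.0689).

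**Figure D4:**
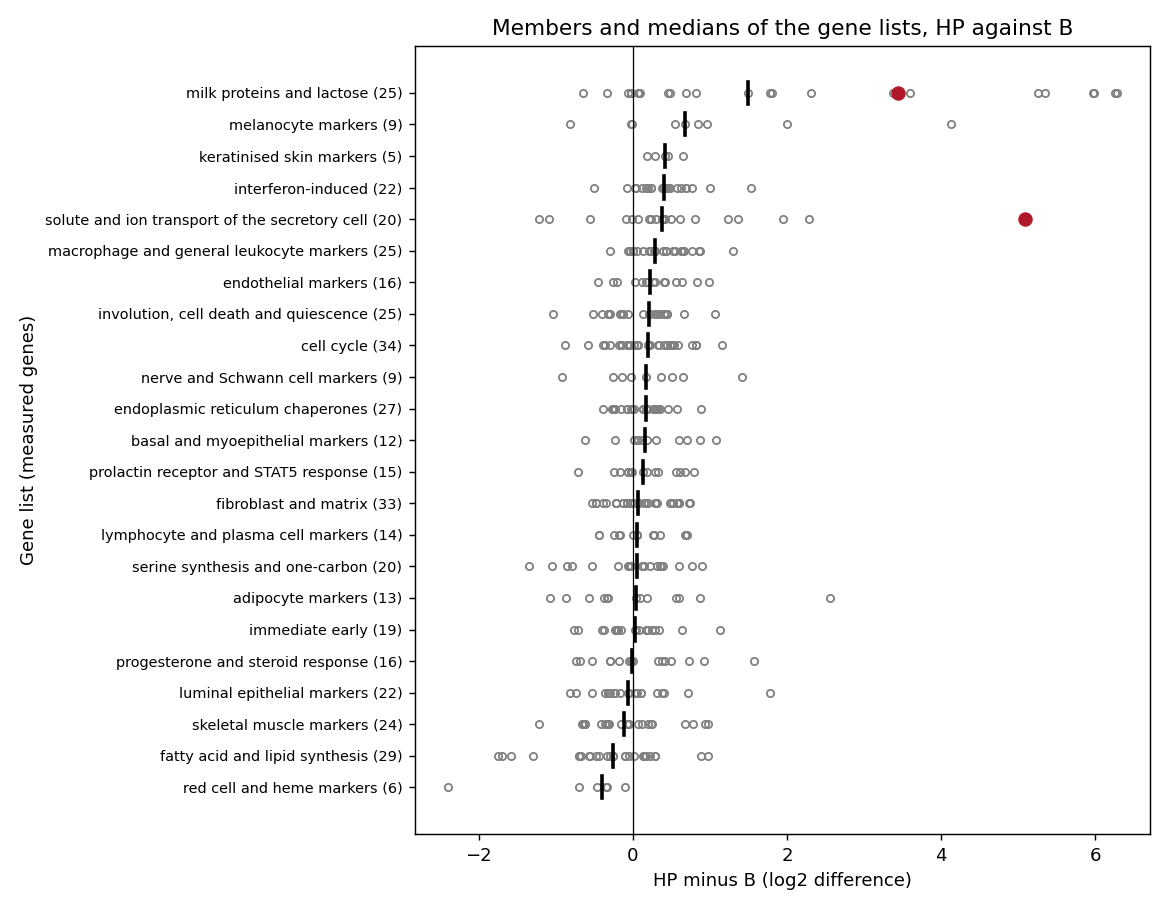
Difference HP minus B (log2, horizontal axis) of each measured gene of 23 lists, with called genes as filled red points, the others as open circles and a black bar at each list's median. The milk list has the highest median, 1.50, and the red cell and heme list the lowest, -0.41.

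ALAS2, which starts heme production in developing red cells, had 4.08, 3.89, 4.26 and 5.13 in HP, against 6.95, 6.85, 5.83 and 7.31 in B. The groups did not overlap, and the difference was -2.39 ± 0.60 (adjusted p = 0.0762). ALAS2 averaged 4.64 ± 0.74 in H and 6.16 ± 1.69 in BP. All 6 measured red cell and heme genes had negative differences, with none called. Markers of pigment cells were also uneven between arrays. Of 9 measured, 6 differences were positive and none was called, and the scores were 0.55 to 0.71 in 3 HP arrays, -0.85 in HP array A, and -0.91 to -0.46 in B. TYRP1, a melanosome enzyme named after its values were seen, averaged 6.84 ± 3.06 in HP and 2.70 ± 1.23 in B. The part of pigmented skin in the differences was not tested.

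HP was next set against the groups that share 1 of its treatments. Against H, which differs by the progesterone, no probe set was called by limma (568 at an unadjusted p under 0.05, smallest adjusted p 0.0903). Against BP, which differs by the dopamine drug, none was called (1006, smallest adjusted p 0.183). For the interaction, HP minus H less BP minus B, none was called (1140, smallest adjusted p 0.205). Of the 21 genes called against B, HP lay beyond the H mean in 19 and beyond the BP mean in all 21. The HP arrays that chose these genes are also in these differences, so their direction is no separate evidence. The median difference of the 18 higher genes was 1.73 against B, 0.76 against BP and 0.37 against H. The genes were chosen by their difference from B, which favours a large median there, so these medians give no ranking.

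Against BP, CPT1A was higher in HP by 1.07 (95% interval 0.64 to 1.51), and the second FASN probe set was lower, with a difference of -1.52, each with an adjusted p of 0.183. Against H, CPT1A was higher by 0.58 (0.14 to 1.02). SLC34A2 was higher by 3.07 against BP (1.38 to 4.76) and by 0.46 against H (-1.23 to 2.15). ANGPTL4 was higher by 1.93 against BP (1.03 to 2.83) and by 0.52 against H (-0.38 to 1.42). MT1A was higher by 1.05 against BP (0.06 to 2.03) and by 1.30 against H (0.31 to 2.28). For HSD17B7 the difference was 0.76 against BP (0.29 to 1.23) and -0.0039 against H (-0.47 to 0.46). None of these differences passed after adjustment, and an interval that spans 0 does not show that the groups are alike.

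**Figure D5:**
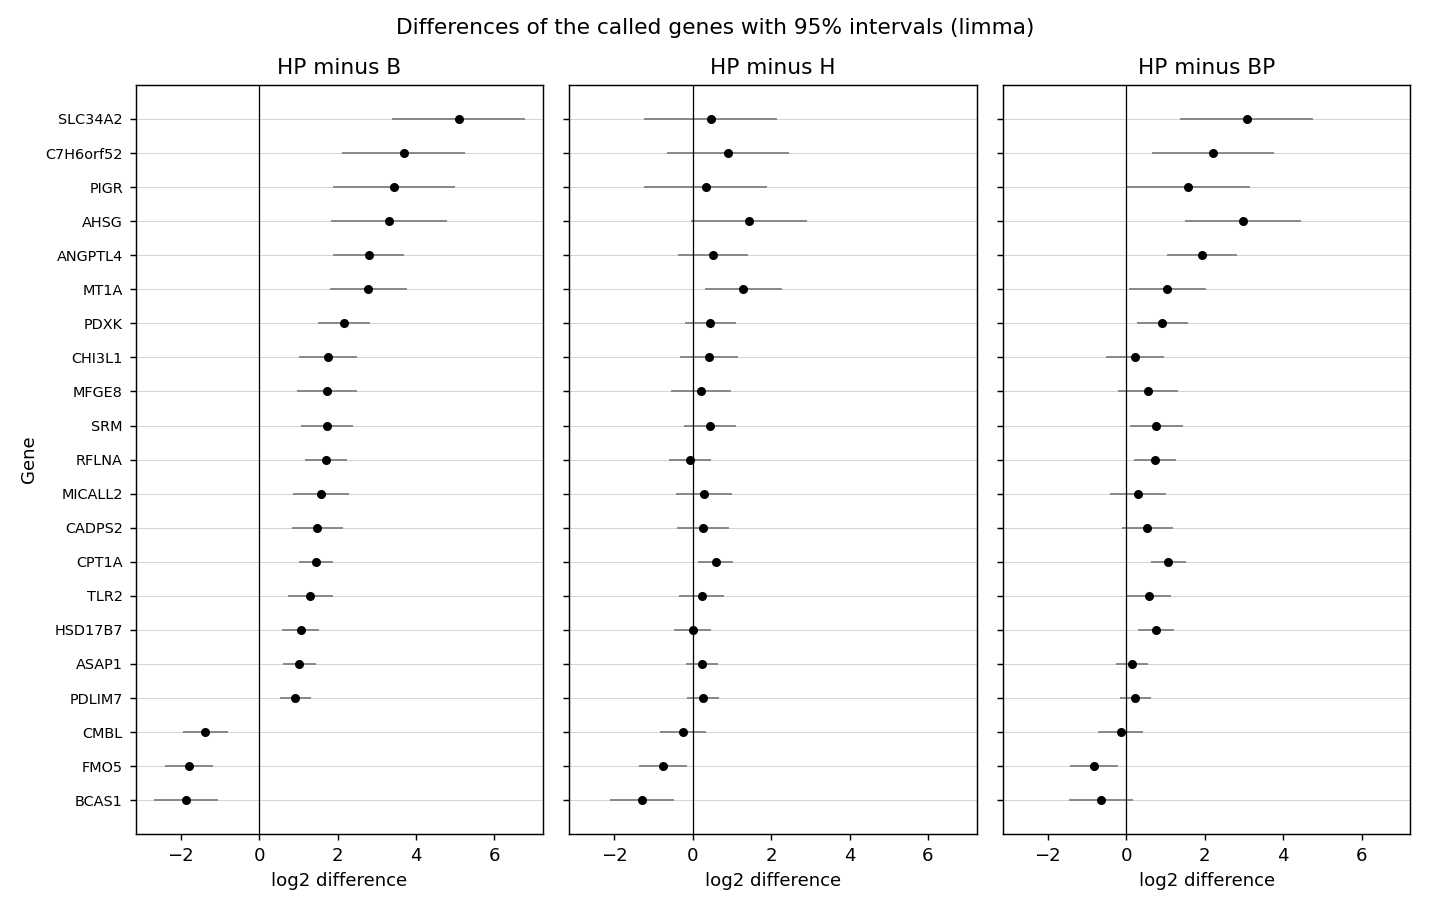
Difference (log2, horizontal axis) of the 21 called genes between HP and B, HP and H, and HP and BP, with 95% intervals of limma before adjustment for the number of probe sets. SLC34A2 differs by 5.09 from B, 0.46 from H and 3.07 from BP.

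The means of the 6 milk protein genes plotted by array were nearer to HP than to B in H, and also in BP. CSN2 had 12.14, 11.50, 12.04 and 11.64 in H, and HP minus H was 0.16 (95% interval -2.62 to 2.94). CSN2 had 12.05, 8.67, 10.97 and 8.19 in BP, and HP minus BP was 2.02 (-0.76 to 4.79). HP minus H was 1.35 for WAP (-1.73 to 4.42) and 1.57 for LALBA (-2.33 to 5.47). HP minus BP was 2.85 for WAP (-0.23 to 5.93) and 2.56 for LALBA (-1.34 to 6.46). These intervals are wide and span 0. They rest on 1 spread per probe set shared by all 9 groups. For CSN2 the SD was 0.38 in HP and 0.31 in H, against 4.02 in B, so other groups set much of that width. LALBA was more uneven in H, with 12.39, 8.33, 10.51 and 5.47, and in BP, with 12.72, 6.70, 9.77 and 3.58. BP array A was the highest BP array in every milk gene of the plot by array. It was unlike the other BP arrays in other ways too, and its profile correlated best with HE. Its cell cycle score was 1.30, against -1.15 to -0.87 in the other BP arrays. PGR stood at 8.96 in it (others 5.36 to 6.45) and TOP2A at 10.87 (others 6.60 to 7.77). The array is part of every HP minus BP difference, the interaction and the shared spread. The reason for its profile was not tested.

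Of the 21 called genes, 4 had an unadjusted p under 0.05 for the interaction. RFLNA had an interaction of -1.06 (95% interval -1.82 to -0.29), CHI3L1 of -1.12, ASAP1 of -0.64 and CMBL of 0.99, and none passed (adjusted p = 0.834 to 0.907). For CHI3L1 the means were 7.71 in HP, 7.29 in H, 7.49 in BP and 5.95 in B, so HP, H and BP lay together above B. The B arrays that chose the genes are in the interaction too.

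The same change of drug under both estrogen and progesterone, HEP against BEP, uses 8 other arrays. These arrays, like those of HE and BE, entered the spread estimate behind the calls. Genes with little spread there were more readily called and more readily show no overlap, so the shares of all genes are an imperfect background. All 18 genes higher in HP than B had a higher mean in HEP than in BEP, against 54.4% of all genes. In 8 of the 18 every HEP array lay above every BEP array, which held for 8.13% of all genes (4.48% lay wholly below). These were SLC34A2, PIGR, PDXK, MFGE8, SRM, RFLNA, CADPS2 and CPT1A. SLC34A2 averaged 8.79 ± 1.74 in HEP and 5.03 ± 1.07 in BEP, and PDXK 10.42 ± 0.14 in HEP and 8.78 ± 0.37 in BEP. In HE against BE, with estrogen and no progesterone, 16 of the 18 had the higher mean in HE, against 55.2% of all genes. Of the 3 lower genes, BCAS1 and FMO5 were also lower in HEP than BEP, with differences of -0.61 and -0.32, and CMBL was higher by 0.18. In HE against BE, BCAS1 differed by -1.39, FMO5 by -0.23 and CMBL by 0.36. CMBL averaged 8.21 ± 0.19 in HE and 7.85 ± 0.08 in BE, the reverse order of HP and B.

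Other called genes took a different course with estrogen. ANGPTL4 averaged 9.07 ± 0.53 in HEP and 8.97 ± 0.67 in BEP, and 9.23 ± 0.53 in HE and 9.10 ± 0.56 in BE, all nearer to the B level of 8.37 ± 0.24 than to the HP level of 11.17 ± 1.12. AHSG averaged 4.35 ± 0.37 in HEP and 4.34 ± 0.46 in BEP, with 7.74 ± 1.79 in HP and 4.42 ± 0.33 in B. MT1A averaged 7.25 ± 0.65 in HE and 9.15 ± 0.50 in BE, the reverse order of HP and B. With progesterone as well it averaged 8.955 ± 0.806 in HEP and 8.253 ± 0.20 in BEP, the same order as HP and B. The difference between these contrasts was not tested.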

How the data were processed

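RNA of 36 mammary glands was hybridized to porcine Affymetrix arrays. The authors deposited 1 value per probe set and array, made with RMA per the submitters' processing notes. The base of the logarithm is not stated, and the deposited values were read as log2 from their range of 1.552 to 13.74. Array medians lay between 7.83 and 7.91, the highest correlation between arrays was 0.984, and the number of arrays limits the precision. Values were used as deposited.

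The 20792 probe sets comprised 9149 with 1 symbol, 178 with several and 11465 with none in the platform annotation. Where a gene had several probe sets with its symbol alone, the brightest on average represented it. limma 3.58.1 in R 4.3.3 (statmod 1.5.0) fitted 1 mean per group to the 36 arrays (27 residual and 4.16 prior degrees of freedom), with two-sided moderated tests and Benjamini-Hochberg adjustment over all probe sets within each of 4 comparisons. The model was run on simulated data with known changes and independent noise of equal spread in all groups. That run does not test the effect of unequal spreads or outlying arrays.

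The text names the 20 largest called genes in each direction, up to 6 called genes per list and 30 fixed genes, of which 23 were measured, and says where others were added. The comparison, lists and fixed genes were chosen with earlier results of these data known. Array letters A to D were not treated as pairs in the main fit. Deviations of same-letter HP and B arrays correlated at -0.163 to 0.202, which cannot show whether a letter marks a shared block. Alternatives were a filter on dim probe sets, other scalings and moderation, array weights, the letter as a block, 1 probe set per gene, fewer groups and left-out arrays. Sequences, genome positions and raw intensities were not used here. Figures were made in Python 3.11.15 with pandas 2.3.3 and matplotlib 3.10.9.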

Additional observations from a re-analysis of the deposited data

Results flagged for a closer look

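Of 132 sets of 4 values examined, 6 had a highest or lowest array set apart from the other 3 by Dixon's criterion at 95%, and chance alone flags about 1 in 20. In HP, array A had a melanocyte marker score of -0.848, against 0.553 to 0.713 in the other HP arrays. In B, array B had LALBA at 10.78, against 2.30 to 3.26 in the others, and HSD17B7 at 9.91, against 10.77 to 10.81. B array A had a luminal epithelial score of -1.38 (others 0.0507 to 0.295), a prolactin receptor and STAT5 score of -0.291 (others -0.0329 to 0.0063) and a skeletal muscle score of 5.98 (others -1.13 to -0.267).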

How the results depend on the processing

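The 47 probe sets called in HP against B became 29 without dim probe sets, 25 with 1 probe set per gene, 1 with the HP and B arrays alone, 0 with the arrays of HP, H, BP and B alone, 13 without B arrays A and B, and 100 without B array B and BP array A, a setting added after the data were seen. Leaving out 1 array gave 10 to 148. With the letter as a replicate block 51 were called, and 52 with it as a random block, so the block changed no count by over 1.5 times. CSN2 passed under both blocks. A further quantile normalization gave 50, centring 54, a variance trend 47 and array weights 70. In HP against H, array weights gave 1 call. HP against BP gave 0 to 5 calls with 1 array left out and 4 without B array B and BP array A. The interaction gave 2 with array weights, 0 to 5 with 1 array left out, 1 without B arrays A and B, and 2 without B array B and BP array A. The causes were not tested.

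No called gene changed sign under any alternative run. In all 21 the HP and B arrays do not overlap, so leaving out or reweighting arrays could not turn the sign. Among genes that were not called, signs turned with 1 array left out: PGR ranged from -0.0058 to 0.79, DEFB1 from -0.47 to 0.49, AREG from -0.94 to 0.21, TOP2A from -0.37 to 0.86, ADIPOQ from -0.84 to 0.033 and MYL1 from -0.67 to 2.45. Without B array B and BP array A, AREG was 0.13, ADIPOQ 0.033 and MYL1 -0.67. Without B arrays A and B, ADIPOQ was 0.40 and ACACA 0.14. Probe sets near the lowest signals, such as those of BCAS1, AHSG and C7H6orf52, give fold changes of uncertain size.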

Other observations

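Transporters of the secretory cell other than SLC34A2 were uneven. Of 20 measured genes, 15 had positive differences between HP and B, with a median of 0.38 and 1 called. Members named after their values were seen were SLC28A3, a nucleoside transporter (8.03 ± 1.38 in HP and 5.74 ± 1.07 in B, adjusted p = 0.201), and SLC2A5, a fructose transporter (9.42 ± 0.39 in HP and 10.63 ± 0.43 in B, adjusted p = 0.419). In SLC2A5 every HP array lay below every B array. Of the genes of serine synthesis and one-carbon metabolism, 20 were measured and none was called. PSPH, the last enzyme of serine synthesis, averaged 8.59 ± 0.59 in HP and 9.93 ± 0.39 in B (difference -1.35, adjusted p = 0.0644), and SHMT1, which converts serine to glycine, 8.80 ± 0.24 in HP and 7.91 ± 0.42 in B (difference 0.89, adjusted p = 0.0789). PHGDH, the first enzyme of serine synthesis, differed by 0.36 (adjusted p = 0.564).

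Interferon-induced genes were higher on average in HP without passing, and their scores overlapped (0.21 to 0.55 in HP, -0.25 to 0.455 in B). Of 22 measured, 20 differences were positive, the median was 0.40 and none was called. In 4 (ISG15, IRF7, IFIT2 and MX1, named after their values were seen) every HP array lay above every B array, which held for 2.67% of all genes, with MX1 at 10.14 ± 0.14 in HP and 9.15 ± 0.53 in B (adjusted p = 0.29). Leukocyte markers, which such genes can follow, had 19 of 25 positive differences and a median of 0.29, with scores of -0.25 to 0.57 in HP and -0.44 to 0.08 in B. Their part in the interferon genes was not tested. The contractile genes CNN1 and TAGLN, 2 of 12 measured basal and myoepithelial markers, also had every HP array above every B array (2.67% of all genes), with CNN1 at 8.47 ± 0.46 in HP and 7.39 ± 0.14 in B (adjusted p = 0.0754).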
